A study of Mus musculus with 6 samples.

Results

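The Ulk kinase genes of the mouse, Ulk1, Ulk2, Ulk3 and Ulk4, were examined for DNA recovered with Tug1 RNA in cultured podocytes. Peaks were assigned to a gene when they lay inside its span or within 5 kb of it, and the 4 genes were chosen from measured values, because Ulk4 was known to hold several regions found in every library. They are 4 of 21887 protein-coding genes placed on chromosomes 1 to 19, X and Y, and they held 65 of 130269 deposited peaks (0.0499%). The assay was chromatin isolation by RNA purification with sequencing (ChIRP-seq), in which biotinylated DNA probes pull an RNA and the chromatin crosslinked to it out of a nuclear extract. The 48 probes along the long noncoding RNA Tug1 formed an even and an odd set with no probe in common.

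Each probe set was used in 2 pulldowns, so there were 4 libraries, called even replicates 1 and 2 and odd replicates 1 and 2. All came from podocytes immortalised with a temperature-sensitive SV40 T antigen, which were used at passages 10 to 12 after growth at 33 degrees and 10 days of differentiation at 37 degrees. There was no treatment, genotype or time contrast, and the 2 input DNA libraries entered through the authors' peak calling alone. Nothing in the labels says that replicates were separate cultures, so their spread may be technical. A peak list holds no expression values, so the labelled cell type could not be set against marker genes. No pulldown of another RNA entered the comparison, so recovery specific to Tug1 was not tested.

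The 4 lists held 26529 to 40725 peaks, and their read depth is unknown. Each peak carries a score from the authors' peak caller, which has a meaning within its own list alone. In the replicate 1 lists 78.6% (even) and 99.9% (odd) of peaks share a score of 3100, so these lists hardly rank their peaks. In the replicate 2 lists the score varied, with medians of 265 (even) and 221 (odd), and the percentiles below come from these lists unless stated. A percentile here is the mid-rank of a peak's score among all peaks of its list, from 0 for the lowest to 100 for the highest.

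Ulk1 and Ulk2 are serine/threonine kinases related to the worm kinase unc-51 and the yeast kinase Atg1. Bound to Atg13, Rb1cc1 and Atg101, they start autophagy, the delivery of cell contents to lysosomes, when nutrients or energy run low. Podocytes are known for a high basal level of autophagy. Ulk3 takes part in Hedgehog signalling, where it acts on Gli transcription factors, and Ulk4 is a pseudokinase that lacks residues needed for ordinary catalysis and has been linked to cilia and brain development.

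The start sites of the Ulk genes themselves carried no peak. In RefSeq promoter windows (build GRCm38.p6, 250 bases before to 50 after a start site), found for all 4 genes, the nearest peak of any library lay 6.21 kb from the window of Ulk1, 7.92 kb from that of Ulk2, 1.45 kb from that of Ulk3 and 1.64 kb from that of Ulk4. Inside Ulk4, however, the start of the lncRNA gene Gm34735 lay under a peak of each even library. Both sequences are shown because they differ in make-up and in whether a peak covers them. The first is the 250 bases upstream of the Ulk4 start site (minus strand, chr9:121277173-121277422), with CG dinucleotides in capitals. The annotated span of Ulk4 reaches further upstream than this start site, from which all distances in Ulk4 are counted. The second is the whole window of Gm34735 (minus strand, chr9:121270297-121270596), with the 188 bases under the peaks of both even libraries in capitals.
Ulk4: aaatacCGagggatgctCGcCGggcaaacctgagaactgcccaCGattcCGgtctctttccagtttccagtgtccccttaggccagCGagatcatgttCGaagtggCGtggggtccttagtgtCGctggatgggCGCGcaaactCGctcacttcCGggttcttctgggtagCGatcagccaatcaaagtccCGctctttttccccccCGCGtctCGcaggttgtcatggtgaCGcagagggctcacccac
Gm34735: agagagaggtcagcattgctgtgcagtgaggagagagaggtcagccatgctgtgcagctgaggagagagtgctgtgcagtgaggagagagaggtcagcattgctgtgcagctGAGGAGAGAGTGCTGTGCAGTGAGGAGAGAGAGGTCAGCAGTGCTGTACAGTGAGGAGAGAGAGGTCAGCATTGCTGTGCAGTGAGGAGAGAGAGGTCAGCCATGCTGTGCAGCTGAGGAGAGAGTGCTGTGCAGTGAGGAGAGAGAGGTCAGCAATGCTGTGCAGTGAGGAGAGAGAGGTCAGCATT

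The Ulk4 window held 23 CG dinucleotides in its 300 bases, more than 78.4% of the 27025 RefSeq promoter windows used here, of which the median had 7. The windows of Ulk1, Ulk2 and Ulk3 held 26, 45 and 18. The Gm34735 window held none and was a tandem repeat. The 10 letters GAGGAGAGAG occurred in it 10 times, 21 to 32 bases apart from start to start, and not on the other strand. These letters were found on either strand in 157 windows (0.581%), and 1.17% of windows repeated any 10 letters at least 10 times. The motif was picked after the sequence was seen, copies of it may overlap longer shared units, and a match is a description of the sequence alone.

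The peaks at the Gm34735 start merged into a region at chr9:121269976-121270502, 6.67 kb downstream of the Ulk4 start site. It was among 3458 regions in the genome (3.06% of 113114) that came from both even libraries and neither odd library. Even replicate 1 gave it a score of 2079 (3.61 percentile) and even replicate 2 a score of 94.6 (2.24 percentile), so it ranked near the bottom of both lists.

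Ulk1, Ulk2 and Ulk3 had few peaks, and none was shared between libraries. Ulk1 (gene ID 22241, chr5:110784489-110810120, minus strand, 25.6 kb) held 1 peak, of odd replicate 2, at chr5:110799372-110799857. It lay 10.2 kb downstream of the start site and scored 83.8, the 2.65 percentile of its list. Ulk2 (gene ID 29869, chr11:61775598-61855334, minus strand, 79.7 kb) held 3 peaks, all of odd replicate 1 and all at the common score of 3100. They lay 7.97, 21.2 and 31.5 kb downstream of the start site, the nearest at chr11:61846923-61847126. Ulk3 (gene ID 71742, chr9:57589141-57596233, plus strand, 7.09 kb) held 1 peak, of even replicate 1, at chr9:57590952-57591182, 1500 bp downstream of its start site and again at 3100. So each of these 3 genes was marked in a single library, and a different one for each gene.

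Summed over the 4 libraries, these counts were at or below the median for genes of their length. Beside each gene stood the 200 protein-coding genes nearest to it in length, counted in the same way. Ulk1 had 1 peak where genes of like length had a median of 2 (quartiles 1 and 3), Ulk2 had 3 against a median of 5 (quartiles 3 and 7), and Ulk3 had 1 against a median of 1 (quartiles 0 and 2). At least as many peaks were found at 82.5%, 80.5% and 59.0% of those genes. In the single library that marked it, each gene stood above the like-length median of that library. Ulk2 had 3 peaks against 1 in odd replicate 1, a count reached by 10.5% of its like-length genes. Ulk1 had 1 against 0 in odd replicate 2, and Ulk3 had 1 against 0 in even replicate 1. In the remaining libraries these genes had no peak. Of all protein-coding genes, 74.9% had a peak of some library within 5 kb, and all 4 Ulk genes did.

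**Figure D1:**
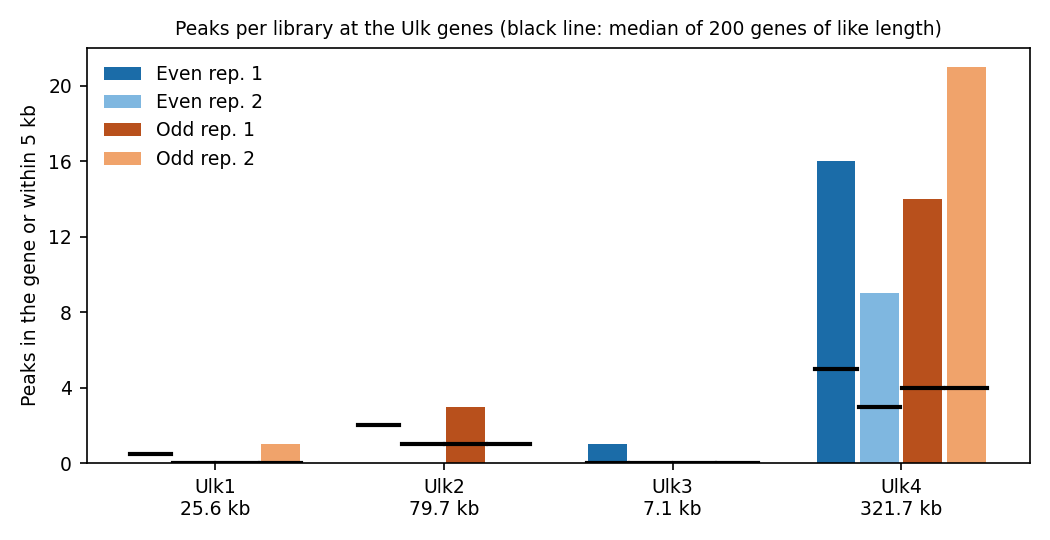
Peaks in or within 5 kb of each Ulk gene (vertical axis, number of peaks) in each of the 4 libraries (bars, 1 library each, so no error bar), with gene length under each name. Black lines give the median of the 200 protein-coding genes of like length in the same library. Ulk4 had 16, 9, 14 and 21 peaks, above the lines at 5, 3, 4 and 4. Ulk1, Ulk2 and Ulk3 each had peaks in 1 library, and there the bar stood above its line.

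Every one of the 65 peaks lay inside a gene span, and none in the 5 kb flanks. The nearest peaks outside the flanks were one of even replicate 1 at 6.42 kb from Ulk1, one of even replicate 1 at 6.85 kb from Ulk2, and one of odd replicate 2 at 5.19 kb from Ulk3, inside the neighbouring gene Cplx3. The last scored 144.6, the 18.9 percentile. Ulk4 had no peak closer than 23.9 kb outside its span, where one of even replicate 1 lay in Ctnnb1, the gene of beta-catenin.

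Ulk4 (gene ID 209012, chr9:120964454-121286159, minus strand, 321.7 kb), by far the longest of the 4 genes, had more peaks than the other members in every library. The even libraries had 16 peaks (replicate 1) and 9 peaks (replicate 2), a mean of 12.5 ± 4.95 (SD, n = 2). The odd libraries had 14 and 21, a mean of 17.5 ± 4.95 (SD, n = 2). The ranges of the probe sets overlapped. Even and odd pulldowns of the same number share their input library, which these means and SDs leave out. By number, the odd library had fewer peaks than the even one in replicate 1 (14 against 16) and more in replicate 2 (21 against 9). With 2 pulldowns each, the smallest two-sided exact permutation p is 0.333 when this pairing is ignored. Overlapping peaks of different libraries merged into 26 regions. Of these, 12 held at least 1 even and 1 odd library, and 3 held all 4 libraries.

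The number of regions in all 4 libraries, which led to the choice of this family, was set against genes of like length (280.4 to 363.1 kb). Of those 200 genes, 184 had none, 14 had 1 and 2 had 2, so 8% had any and no gene reached the 3 of Ulk4. The exact binomial interval (95%) of 0 of 200 reaches up to 1.83% and covers counting error alone. It serves only as a yardstick for recalculated shares, since the 200 genes were picked by length and not at random. The 2 genes next to Ulk4 in this order, picked after their values were seen, were Limch1, which codes for an actomyosin regulator, and the chloride channel gene Ano2. Across all protein-coding genes 1.6% had a region in all 4 libraries, 19 had at least 2 and 2 had 3, the other being Gm40367 on chromosome 6. Since this count chose the gene, it is a description and has no test.

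Other counts at Ulk4 stood apart in the same way, although they share peaks with the first. It had 12 regions shared by the probe sets, where genes of like length had a median of 1 and a highest value of 5. Any such region was found at 66% of those genes and at 16% of all protein-coding genes. Its 60 peaks compare with a median of 16.5 and a highest value of 47. By library, 1 of the 200 genes had as many peaks as Ulk4 in even replicate 1 and 5 had as many in even replicate 2, while none did in odd replicate 1 or 2. In number of merged regions, 26 against a median of 15, the gene was less extreme, and 5% of genes of like length had at least as many.

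**Figure D2:**
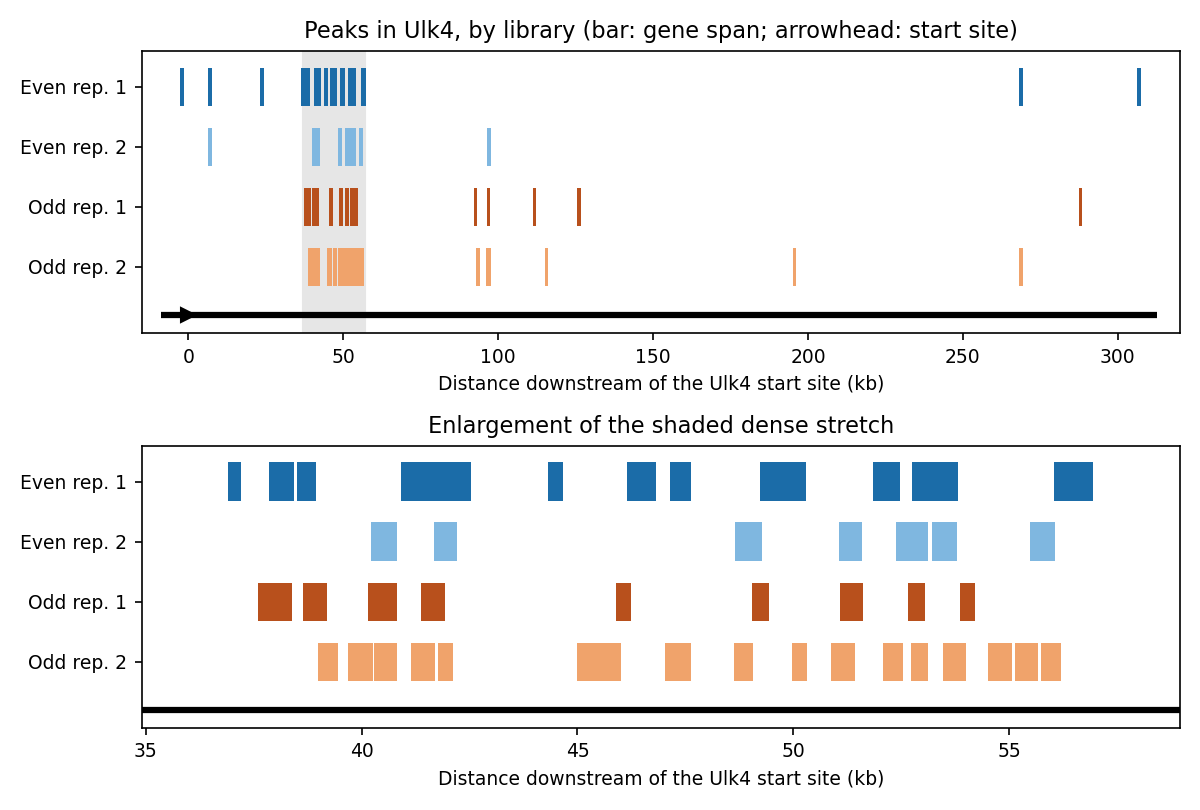
Peaks in Ulk4 by library (rows) against distance downstream of its start site (horizontal axes, kb). The upper panel shows the gene span (black bar) with each peak drawn 0.8 kb wider than it is so that it can be seen, and the lower panel shows the shaded stretch to scale. In every library most peaks crowd between 36.9 and 57.0 kb, and the rest are scattered.

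The peaks were not spread along the gene. A stretch of 20046 bp at chr9:121220219-121240264, between 36.9 and 57.0 kb downstream of the start site, held 43 of the 60 peaks (71.7%) in 6.23% of the gene's length. All 3 regions found in every library lay in it, as did 10 of the 12 with an even and an odd library. Peaks at most 5 kb apart were joined to define the stretch, after the data were seen, and joining at 2 or 10 kb gave the same ends. At 1 kb the stretch split, and its first part, up to position 121232860, held 28 peaks. The nearest peaks beyond it lay 35.6 kb and 12.9 kb away. Within Ulk4 the stretch overlapped no other annotated gene, and the annotation used here does not say whether it is exonic or intronic.

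All 4 libraries contributed to the stretch. Even replicate 1 had 11 peaks there, covering 40.9% of its bases, and even replicate 2 had 7, covering 20.99%. Odd replicate 1 had 9, covering 22.6%, and odd replicate 2 had 16, covering 41.9%. Together they covered 74.0% of the stretch, which is called the Ulk4 block below. Peaks in it were wide, with median widths of 632 and 582 bp in the even libraries and 521 and 536.5 bp in the odd ones, where the whole lists had 399, 404, 247 and 407 bp in the same order.

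The 3 regions in every library were neighbours inside this block. The first, at chr9:121222963-121225331, merged 9 peaks, with a highest score of 170 in even replicate 2 (17.5 percentile) and 226 in odd replicate 2 (51.4 percentile). The second, at chr9:121226852-121228555, merged 5 peaks and scored 196 in even replicate 2 (26.2 percentile) and 121 in odd replicate 2 (10.2 percentile). No base of this second region lay under peaks of every library. Its first odd replicate 2 peak ended at 121227199, before the odd replicate 1 peak began at 121227734. Its later odd replicate 2 peak began at 121228117, after the even replicate 1 peak ended at 121227952. The third, at chr9:121234632-121236267, also merged 5 peaks and scored 142 in even replicate 2 (8.66 percentile) and 153 in odd replicate 2 (22.4 percentile). In both replicate 1 libraries all 3 regions had the common score of 3100. Each of the 3 thus ranked low in even replicate 2, and the last 2 also in odd replicate 2.

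The other 10 regions of the block were found in 3 libraries (5 regions), 2 libraries (2 regions) or 1 library (3 regions). The widest of those in 3 libraries, at chr9:121230347-121232176, lacked even replicate 2 and scored 306 in odd replicate 2, the 71.1 percentile. The region at chr9:121236344-121237493 lacked even replicate 1 and scored 330 in even replicate 2 (65.4 percentile) and 232 in odd replicate 2 (53.2 percentile). These were the highest scores of the block in the replicate 2 lists.

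In the replicate 2 lists, most peaks of the block scored below the list median. In the replicate 1 lists 7 of its 11 even peaks and all 9 odd peaks had the common score of 3100, which ranks them with most of their lists. The remaining even replicate 1 peaks scored 1548 to 2749, at the 0.719 to 14.3 percentiles of that list, so they also ranked low. In even replicate 2 its 7 peaks ranged from 142 to 330 with a median of 170, and 1 of them exceeded the list median of 265. In odd replicate 2 its 16 peaks ranged from 92.5 to 306 with a median of 154, and 3 exceeded the list median of 221. Regions in all 4 libraries elsewhere in the genome had higher median scores, 446 over 812 peaks in even replicate 2 and 485 over 794 peaks in odd replicate 2. Peaks of the 3 Ulk4 regions had medians of 164 over 4 peaks and 139 over 7 peaks in the same lists. The gene was chosen on these same lists, so the difference is given without a test.

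**Figure D3:**
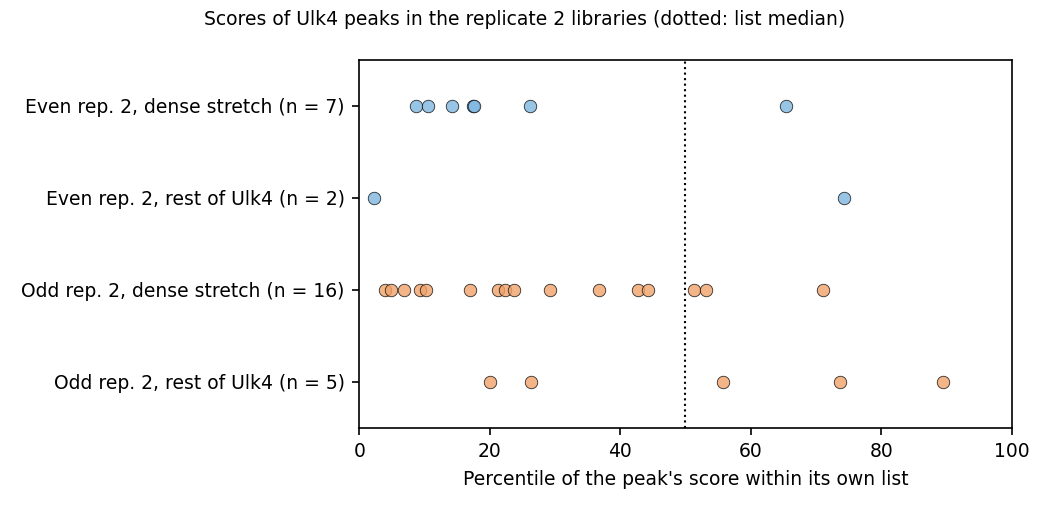
Score percentile within its own list (horizontal axis) of each Ulk4 peak in the replicate 2 libraries, split into the dense stretch and the rest of the gene (rows, points are peaks). The dotted line is the list median. In the dense stretch 1 of 7 peaks of even replicate 2 and 3 of 16 of odd replicate 2 lie to its right.

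Outside the block, Ulk4 was close to the median of genes of its length. It held 17 peaks there, 5 and 2 of the even libraries and 5 of each odd one. The 200 genes of like length, from which nothing was taken out, had a median of 16.5, and 100 of them had at least 17. The medians by library were 5, 3, 4 and 4. Of its 13 regions outside the block, 2 had an even and an odd library, a number reached by 30.5% of genes of like length, and none had all 4.

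**Figure D4:**
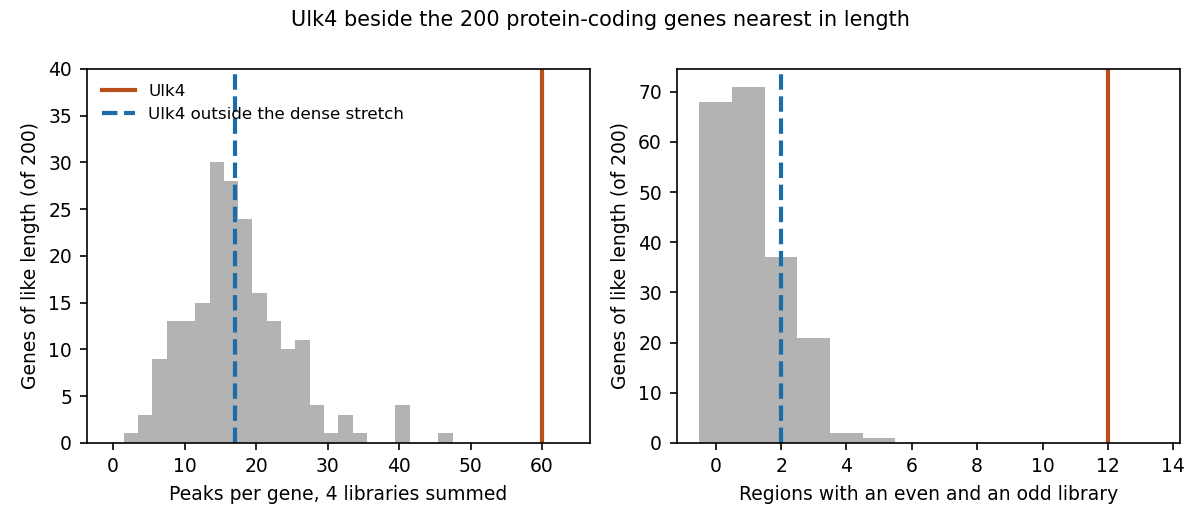
Distribution over the 200 protein-coding genes nearest to Ulk4 in length (grey bars, number of genes) of peaks per gene (left) and of regions with an even and an odd library (right). The solid line is Ulk4, at 60 peaks and 12 regions, to the right of every bar. The dashed line is Ulk4 outside the dense stretch, at 17 peaks and 2 regions, inside the distribution.

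The 2 shared regions outside the block scored above the list median in each replicate 2 list where they had a peak, as a minority of peaks in the block did. The region at chr9:121179776-121180691, 96.5 kb downstream of the start site, held peaks of even replicate 2, odd replicate 1 and odd replicate 2. It scored 382 in even replicate 2 (74.3 percentile), 3100 in odd replicate 1 and 242 in odd replicate 2 (55.8 percentile), above both replicate 2 medians. The region at chr9:121008249-121008510, 268.7 kb downstream, held a peak of even replicate 1 (3100) and a peak of odd replicate 2 that scored 461 (89.5 percentile). The last is the highest percentile of any replicate 2 peak in the 4 Ulk genes.

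Besides these and the region of both even libraries at the Gm34735 start, the regions outside the block came from 1 library each. Odd replicate 1 had 4 of them at 3100, one of which, at chr9:120989017-120989247, also lay in the lncRNA gene Gm34945. Odd replicate 2 had 3, at scores of 322, 161 and 147. Even replicate 1 had 3, of which the one at chr9:121279065-121279622 lay 1893 bp upstream of the Ulk4 start site and inside the lncRNA gene Gm34655. No library other than even replicate 1 had a peak closer than 6.67 kb to the Ulk4 start site.

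Blocks of this kind were rare in the lists. Joining peaks at most 5 kb apart across the genome gave 86271 stretches, of which 1356 had peaks of all 4 libraries, with a median of 5 peaks and 4.25 kb. The Ulk4 block shared place 15 by number of peaks, and 14 stretches had more. Its place depends on the joining distance, being 4 of 854 for its first part at 1 kb, 7 of 951 at 2 kb and 23 of 2344 at 10 kb. Those 14 were 35.4 kb or longer, against 20046 bp for Ulk4. At 2.15 peaks per kb the Ulk4 block was denser than all of them except the array of 5S ribosomal RNA genes on chromosome 8, with 2.25 peaks per kb over 87.3 kb and 196 peaks.

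Several of the stretches with as many peaks hold runs of like-named genes. Besides the 5S array these were predicted genes around the small RNA gene Rn4.5s on chromosome 6, clusters of Speer4 genes on chromosome 5, runs of predicted genes on chromosome 8 and the Snord116 cluster of snoRNA genes on chromosome 7. Of 109 stretches with at least 10 peaks and all 4 libraries, 10 lay wholly inside the span of 1 or more protein-coding genes. Among these the Ulk4 block had 43 peaks, and Sfi1 on chromosome 11 had more, 47, which were spread over 49.6 kb and came mostly from the replicate 1 libraries (22 and 18 peaks, against 5 and 2). Whether the Ulk4 block holds repeated or duplicated sequence was not tested, since sequence of the block itself was not used here.

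**Figure D5:**
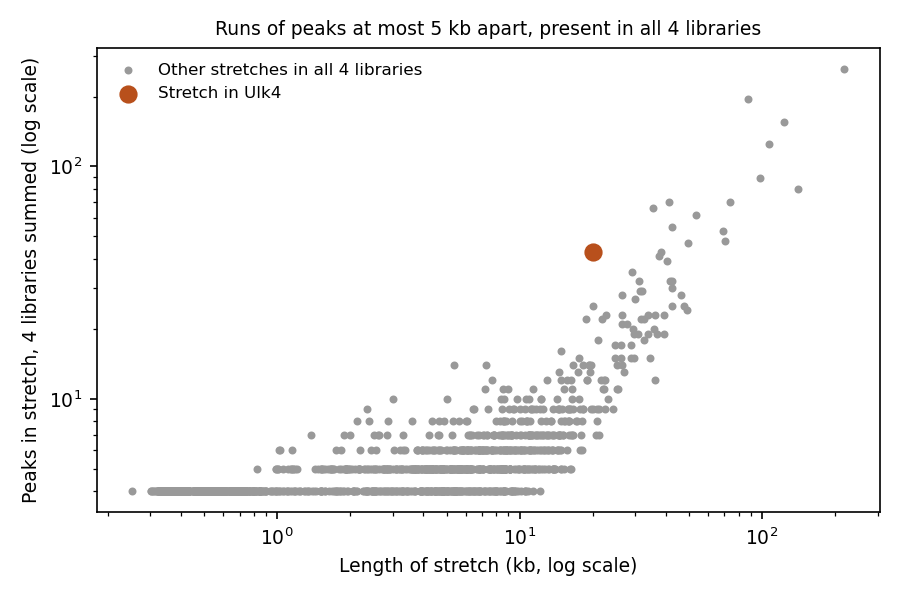
Number of peaks (vertical axis, log scale) against length in kb (horizontal axis, log scale) of the 1356 stretches with peaks of all 4 libraries, peaks at most 5 kb apart being joined. Each grey point is a stretch, and the large point is the Ulk4 block, with 43 peaks in 20046 bp, above other stretches of similar length.

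How the Ulk4 count is made decides its size. With peaks required to cover at least 50% of each other, no Ulk4 region had all 4 libraries, although 643 regions of the genome still did against 748 with any overlap. With peaks at or above their list's median score the number was again 0, of 508 in the genome. This filter falls mainly on the replicate 2 lists, because the median of both replicate 1 lists is the common score of 3100. With peaks up to 5 kb apart joined, the block became 1 region, and 16.5% of genes of like length had at least 1. Bases under peaks of every list formed 3 stretches in Ulk4, none of them in the merged region at chr9:121226852-121228555. The 3 merged regions thus lie in 1 block, and their number depends on how neighbouring peaks are joined.

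Genes that work with Ulk1 and Ulk2 in autophagy were counted for comparison, in a list of 49 genes. None had a region in all 4 libraries, where 1.6% of all protein-coding genes did. Regions shared by the probe sets were found at 14 (28.6%), against 16% of protein-coding genes. List genes are longer (median 29.8 kb against 17.2 kb), which was not allowed for. Without even replicate 1 the number was 1 of 49, against 5.37% of all genes, and without odd replicate 1 it was 7, against 11.3% of all genes.

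The direct partners of Ulk1 and Ulk2 were not among the 14. Atg13 had 1 peak, Rb1cc1 had 5 and Atg101 had 2, none shared between probe sets. Regions in 3 libraries were found at Atg4a, whose product processes Atg8 proteins, at Atg7, the E1-like enzyme of autophagy conjugation, at Prkag2, a subunit of the AMP-activated kinase that activates Ulk1, at Rptor, a subunit of the mTORC1 complex that inhibits it, and at Sqstm1, the cargo receptor p62. In the first 4 genes the region held even replicate 1 and both odd libraries. In odd replicate 2 it scored 277 at Atg4a, 580 at Atg7, 493 at Prkag2 and 257 at Rptor, each above the list median. In even replicate 1 the Prkag2 region scored 2621, only the 12.1 percentile of that list. The Sqstm1 region lay just outside the gene, at chr11:50199556-50200103, and held both even libraries and odd replicate 1. It scored 166 in even replicate 2 (16.1 percentile), below the list median. Atg10, an E2-like enzyme, had a region of both replicate 1 libraries.

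Hedgehog signalling, in which Ulk3 acts, gave 6 of 23 list genes (26.1%) with a region of an even and an odd library and 3 (13.0%) with one in all 4. The background is 16% and 1.6% of protein-coding genes, which are shorter (median 17.2 kb against 65.1 kb). Of the 200 genes of like length to Ulk2 (77.3 to 82.1 kb), 73.5% had no region of an even and an odd library. In that group 96.5% had none in all 4, although the list genes differ widely in length and were not matched to it. The 3 genes were Hhat, the acyltransferase of Hedgehog ligands, Scube2, which aids their release, and Gas1, a coreceptor whose region lay 4.29 kb outside the gene. The Gas1 region, at chr13:60169374-60170118, scored 526 in even replicate 2 (89.6 percentile) and 473 in odd replicate 2 (90.3 percentile). The replicate 2 scores of the Hhat region were 263 (even) and 244 (odd) and those of the Scube2 region 278 (even) and 219 (odd), near the list medians. The others were the signal transducer gene Smo, with a score of 908 in odd replicate 2 (98.5 percentile) beside a peak of even replicate 1, the transcription factor gene Gli2 and the antagonist gene Hhip. Without even replicate 1 the count with an even and an odd library was 3 of 23 genes, against 5.37% of all protein-coding genes.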

How the data were processed

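The submitters' processing notes name Bowtie2 2.1.0 and mm10. Each pulldown has its own deposited peak list, called per the file names against 1 input library and not on pooled replicates. Even and odd pulldowns of the same number share their input library. The peak names start with MACS, and no source used here states the caller's version or threshold. The unit is the score given by the authors' peak caller to each deposited peak, whose scale the files do not state. A deposited list of the whole series held the same 130269 peaks and was not used.

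Peaks were merged where they overlapped by at least 1 bp. Positions are 1-based on mm10, and genes and promoter windows came from RefSeq tables of GRCm38.p6. Members and gene lists were chosen with earlier results of these data known. The text names the Ulk genes, list genes with a region in all 4 libraries, and up to 6 per list with an even and an odd library, by number of libraries and then symbol. No test was run. The merging and counting were tested on simulated data, where 300 of 300 planted regions were found. The planted regions were isolated groups of closely overlapping peaks, so rows of partly overlapping peaks, as in Ulk4, were not tried. Alternatives were another overlap, score or window, other comparison genes, same-number pairs and each library left out. Joining of nearby peaks was added after seeing the data. Python 3.11.15, pandas 2.3.3, numpy 2.4.6, scipy 1.17.1 and matplotlib 3.10.9 were used.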

Additional observations from a re-analysis of the deposited data

How the results depend on the processing

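Of 63 recalculated values, 48 stayed within 1.5 times the reported count, or inside the exact binomial interval of the reported share, and 15 did not. Several of the 48 could not have moved, so their number does not measure stability. All 65 peaks lay inside gene spans, so narrower windows could not change the Ulk counts or raise the share of 0%. With no peak closer than 23.9 kb outside Ulk4, the window of 10 kb could not change its regions. The 100 genes nearest in length are among the 200 of which none reached 3. The 3 regions of Ulk4 in all 4 libraries became 0 with a reciprocal overlap of 50% and 0 with peaks at or above the median score, where no share of like-length genes was formed. With peaks up to 2 or 5 kb apart joined, the number was 1, the share of like-length genes with as many was 13.5% or 16.5% in place of 0%, and the 12 regions with an even and an odd library became 3. The 65 peaks of the family became 36 at or above the median score, a filter that falls mainly on the replicate 2 lists. With the 50% overlap and with the score filter, 643 and 508 regions in all 4 libraries remained in the genome. Why none of them lay at Ulk4 was not tested. Joining nearby peaks counts fewer and wider regions by design. Leaving out 1 library at a time gave 3 to 7 regions of Ulk4 in all remaining libraries (7 without even replicate 1 and 5 without even replicate 2), 0% to 0.5% of like-length genes with as many, 8 to 10 regions with an even and an odd library, 43 to 56 peaks (43 without odd replicate 2), 1 to 14 autophagy genes and 3 to 6 Hedgehog genes. No paired analysis was possible because no test was run, which leaves no fit to block by replicate number. As a count, same-number pairs alone gave 10 regions of Ulk4 with an even and an odd library. Peak lists hold no depth, and a deeper library can give more peaks.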
